A study of Homo sapiens with 11 samples.

Results

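The 9 genes described here carry or answer transforming growth factor beta (TGF-beta) signalling in a kidney tubular cell line: the ligands TGFB1, TGFB2 and TGFB3, the receptors TGFBR1 and TGFBR2, the feedback inhibitor SMAD7, the matricellular genes CTGF and CYR61 (now named CCN2 and CCN1), and FN1, which encodes fibronectin. They were taken by name from the 58288 genes in the RNA-seq files, of which 19658 were protein-coding genes with an annotated start site on GRCh37. The samples were HK2 cells, an established line of human proximal tubular epithelial origin, all grown in DMEM-F12 with 10% FBS, 1% penicillin-streptomycin and 0.05% DMSO, so that every sample carried the solvent and no untreated or stimulated group stood beside it. RNA-seq was available in 2 libraries and ChIP-seq for H3K4me3 (a mark of promoters), H3K27ac (a mark of active promoters and enhancers) and H3K27me3 (a mark of Polycomb repression) as 2 peak lists each. The labels did not say whether replicates came from separate cultures, so the spread between them may be technical, and a line is 1 cell population kept in culture, without the fibroblasts and immune cells of a kidney.

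TGF-beta ligands are secreted in a latent complex, stored in the matrix and released by integrins or proteases. The free ligand binds the type II receptor, which phosphorylates the type I receptor, and the type I receptor then phosphorylates SMAD2 and SMAD3, which enter the nucleus with SMAD4. In the kidney this pathway is known for driving matrix deposition after tubular injury, and several of its targets, CTGF and CYR61 among them, are also targets of the YAP-TEAD factors of the Hippo pathway.

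All 9 genes were expressed, taken here as an FPKM (fragments counted per length of transcript and size of library) of at least 1 in each library, against 58.7% of protein-coding genes. They spanned a 592-fold range of mean FPKM, from the matrix gene FN1 at the top to the ligand TGFB3 at the bottom. The median over the 9 was 28.3 FPKM, beside 3.32 FPKM over all protein-coding genes. In order of level, FN1 was followed by CYR61, CTGF, TGFB1, TGFBR2, TGFB2, SMAD7, TGFBR1 and TGFB3. The library values of neighbours in this order never overlapped, and neither did those of any of the 36 pairs, but 93.5% of all pairs of expressed protein-coding genes were likewise apart, so the order itself says little beyond the size of each step. None of the 9 differed by more than 1.5-fold between libraries, against 5.93% of protein-coding genes whose mean FPKM reached 1. With 2 libraries, and no second condition, no test was made: even 2 values against 2 cannot give an exact permutation p below 0.33.

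**Figure D1:**
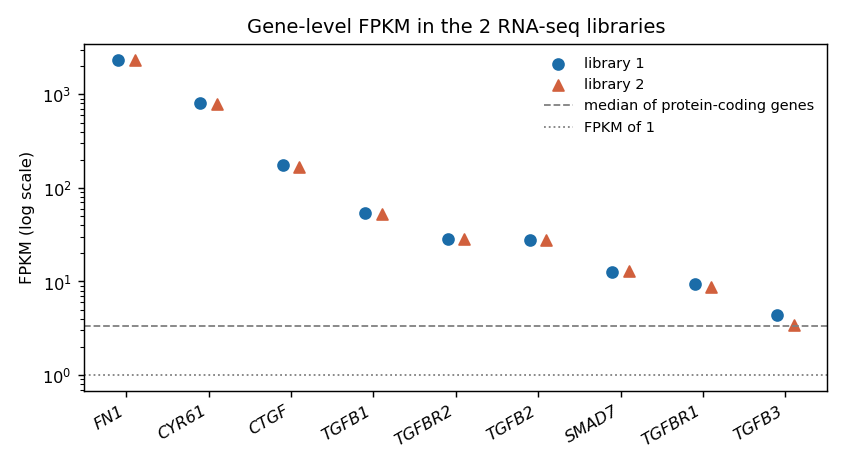
Gene-level FPKM on a log axis for each of the 9 genes, with a circle for library 1 and a triangle for library 2; the dashed line is the median of protein-coding genes (3.32) and the dotted line an FPKM of 1. The symbols of the libraries nearly coincide for every gene except TGFB3 (4.43 and 3.47), and only TGFB3 lies close to the median.

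Among the ligands, TGFB1, the isoform most often tied to renal fibrosis, was the highest. Its gene (ENSG00000105329, chromosome 19, 41807492 to 41859827, minus strand, GRCh37 as all positions here unless stated) stood at 54.3 FPKM in library 1 and 52.2 in library 2, with a mean of 53.2 ± 1.53 (SD, n = 2), above 94.5% of protein-coding genes. TGFB2 (ENSG00000092969, chromosome 1, 218518678 to 218617961, plus strand) stood at 27.9 FPKM in both libraries, above 87.7% of protein-coding genes. TGFB3 (ENSG00000119699, chromosome 14, 76424440 to 76449354, minus strand) stood at 4.43 and 3.47 FPKM, with a mean of 3.95 ± 0.682 (SD, n = 2). TGFB1 was therefore 1.91-fold above TGFB2 and 13.5-fold above TGFB3 in mean FPKM, and TGFB3 was the only one of the 9 near the middle of all protein-coding genes, at percentile 52.2. In bulk RNA such as this, fewer cells making a transcript and less of it in each cell cannot be told apart.

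The receptors were unequal. TGFBR2 (ENSG00000163513, chromosome 3, 30648093 to 30735634, plus strand), the ligand-binding type II kinase, stood at 28.4 and 28.3 FPKM. TGFBR1 (ENSG00000106799, chromosome 9, 101866320 to 101916474, plus strand), the type I kinase that passes the signal to SMAD2 and SMAD3, stood at 9.41 and 8.64 FPKM. The type II receptor was thus 3.14-fold above the type I receptor in mean FPKM. TGFBR2 and TGFB2 were the closest pair of the 9, with a log2 ratio of 0.02 in each library. SMAD7 (ENSG00000101665, chromosome 18, 46446223 to 46477335, minus strand), which binds the type I receptor and marks it for degradation, stood at 12.6 and 13.1 FPKM, with a mean of 12.9 ± 0.396 (SD, n = 2). It lay above TGFBR1 by a log2 ratio of 0.42 in library 1 and 0.61 in library 2. This order is one of gene totals: 65.9% and 66.2% of SMAD7 was assigned to a retained-intron model, described below. The SMAD7 transcript ENST00000262158.6 stood at 2.87 and 2.22 FPKM, beside 7.81 and 6.95 for the leading TGFBR1 transcript.

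The matrix and matricellular genes were far higher. CTGF (ENSG00000118523, chromosome 6, 132269316 to 132272512, minus strand), a secreted protein that binds growth factors and matrix, stood at 174 and 167 FPKM and was number 250 of the 19658 protein-coding genes. CYR61 (ENSG00000142871, chromosome 1, 86046444 to 86050272, plus strand), a related secreted protein and an immediate-early gene, stood at 814 and 790.3 FPKM and was number 38. FN1 (ENSG00000115414, chromosome 2, 216225163 to 216300796, minus strand), the fibronectin of the provisional and fibrotic matrix, stood at 2333 and 2343 FPKM, with a mean of 2338 ± 7.35 (SD, n = 2), and was number 5. CYR61 was 4.71-fold above CTGF in mean FPKM, and FN1 was 2.91-fold above CYR61.

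Several of these genes share sequence with a transcript on the other strand, and the sources used here did not state whether the library kit kept strand. IFT43, a cilium transport gene at 13.7 and 14.3 FPKM, runs opposite to TGFB3 across all 24915 bp of it, so reads of the weakest member could not be told apart from those of IFT43 wherever their exons overlap. TGFB1 is overlapped over 6201 bp by HNRNPUL1, an RNA-binding protein gene at 96.5 and 106 FPKM, and over 14702 bp by CCDC97 at 11.9 FPKM in both libraries. TGFB2-AS1, an antisense transcript at the start of TGFB2, stood at 4.07 and 3.30 FPKM. LINC01013, which runs opposite to CTGF, was listed at 0 in both libraries.

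The gene totals were steadier than the transcripts below them. CTGF had 1 annotated transcript, and the leading transcripts of CYR61 (ENST00000451137.6, 98.2% and 98.9% of the gene's FPKM) and TGFB1 (ENST00000221930.5, 98.1% and 96.5%) held nearly all of the gene. FN1 was spread over 27 transcripts. Its leading transcript, ENST00000356005.8, stood at 1049.7 FPKM in library 1 and 259 in library 2, a share of 45.0% against 11.1%, while ENST00000359671.5 stood at 151 in library 1 and 481 in library 2. Of the 20 transcripts of these genes whose mean FPKM reached 10, 6 differed by more than 2-fold between libraries, all of them from FN1, against 8.94% of such transcripts over all protein-coding genes. FN1's second transcript, ENST00000456923.5, at 537 and 639 FPKM, is an incomplete model whose true start is unknown, and no H3K4me3 peak lay within 1 kb of its annotated start in either replicate.

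The FPKM of a transcript is an estimate by which reads in shared exons are divided among models, so the mean read coverage of single exons, also deposited, was set beside it for exons chosen after the values were seen. The extra domain A exon of FN1, which marks cellular rather than plasma fibronectin and is tied to myofibroblast differentiation, is 270 nt long (chromosome 2, 215380811 to 215381080, GRCh38). Summed over transcripts it had a coverage of 6821 in library 1 and 6799 in library 2. The adjacent exon before it, of 114 nt, had 12148 and 12173. The adjacent exon after it, of 188 nt, had 4810.0 and 4698, with 945 and 810.0 more in a form of 113 nt, and the exon beyond that, of 88 nt, had 13466 and 13486. Against the mean of the 114-nt and 88-nt exons, the nearest on each side with no exon border of another model inside them, the extra domain A exon stood at 53.3% and 53.0%, and the transcripts that hold it summed to 23.4% and 47.6% of the FPKM of FN1. Summed coverage was uneven along FN1, so this percentage is not a measure of inclusion: an exon of 90 nt held by 12 transcripts had 686 and 666, and one of 761 nt had 4797 and 1766.

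In TGFBR2 the split between transcripts also differed between libraries. Its 75-nt alternative exon (chromosome 3, 30623199 to 30623273, GRCh38) adds a stretch to the extracellular part of the receptor. Its coverage was 56.6 and 52.7, beside 118 and 117 over the exon before it and 165 and 174 over the exon after it, or 40.0% and 36.2% of their mean. By FPKM the transcript that holds it, ENST00000359013.4, took 66.8% and 81.8% of the gene. In TGFB2 the 84-nt exon that lengthens the propeptide (chromosome 1, 218363334 to 218363417, GRCh38) had a coverage of 28.3 and 18.7 beside 341 and 282 over the next exon, or 8.31% and 6.65% of it. The transcript that holds it, ENST00000366929.4, took 16.1% and 10.1% of the FPKM of TGFB2.

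**Figure D2:**
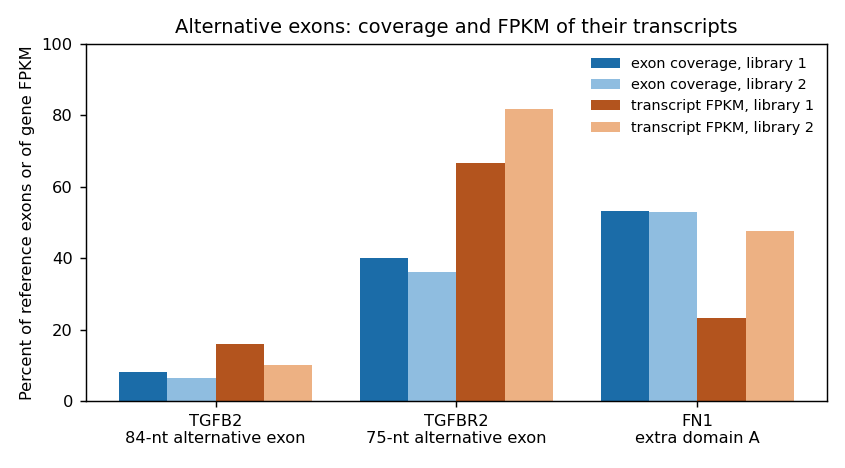
For 3 alternative exons, in percent, the coverage of the exon over the mean of its reference exons (blue; the exons on either side for TGFBR2, the following exon for TGFB2, and for FN1 the preceding exon and the 88-nt exon that is next but one after it) and the summed FPKM of the transcripts that hold it over that of the gene (orange), with dark bars for library 1 and light bars for library 2. For FN1 the coverage bars stand at 53.3% and 53.0% and the FPKM bars at 23.4% and 47.6%. For TGFBR2 and TGFB2 coverage is below FPKM in both libraries.

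For SMAD7, TGFB3 and TGFBR1 the transcript with the most FPKM was covered unevenly along its length. The leading SMAD7 transcript, ENST00000545051.2, a retained-intron model of 2 exons, took 65.9% and 66.2% of the gene, but its first exon of 327 nt had a coverage of 2.91 and 2.63 and its second exon of 1884 nt 54.7 and 55.9. The SMAD7 transcript of 3087 nt, ENST00000262158.6, had 44.0 and 31.0 over its first exon of 900 nt and 2.25 and 3.25 over its last of 2058 nt. The last exons of these 2 models begin at the same base.

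The leading TGFB3 transcript, ENST00000556674.1, is a model of 716 nt that took 46.4% and 45.9% of the gene. Its first exon was listed at 0 in both libraries, and all of its coverage, 16.2 and 12.2, lay in its second exon of 517 nt. The TGFB3 transcript of 7 exons, ENST00000238682.7, was at 1.22 and 1.49 FPKM, with a coverage between 5.30 and 13.6 over its exons in library 1 and between 4.68 and 11.5 in library 2. In the RNA-seq files this model began at 75981191 (GRCh38), short of the RefSeq promoter window, 75981996 to 75982245. The 517-nt exon, 75981243 to 75981759, lay between them, so the lead of the 716-nt model may depend on where the longer model begins. TGFBR1 was led by ENST00000552516.5 at 7.81 and 6.95 FPKM, whose exon 3, of 243 nt, had a coverage of 3.09 and 6.19 between neighbours at 38.8 and 75.6 in library 1 and 17.4 and 53.9 in library 2. The form of that exon in ENST00000374994.8, 231 nt long, had 30.4 and 33.8.

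The promoter sequences of 4 of the genes, chosen for the chromatin data below, are shown here. The start sites of CTGF and FN1, like those of TGFBR1 and TGFBR2, fell between acetylation peaks in replicate 2 only. The H3K27ac peaks of TGFB2 and SMAD7 were the widest in replicate 1. Each line gives bases before the RefSeq start site, 5′ to 3′ in the direction of transcription, from the RefSeq promoter table of GRCh38.p14. The same bases were then placed on GRCh37 by exact match to that genome sequence. For FN1 the 5 bases next to the start site, which an annotated exon covers, were left out. Capitals mark TATAAA (the TATA box, on the transcribed direction only), GGAATG (the TEAD motif), CAGAC (a SMAD-binding element) and TGACGTCA (the cAMP response element, CRE), the last 3 searched on both strands, so that a match on the other strand is printed as its reverse complement.
CTGF, chr6:132272513-132272762, minus strand: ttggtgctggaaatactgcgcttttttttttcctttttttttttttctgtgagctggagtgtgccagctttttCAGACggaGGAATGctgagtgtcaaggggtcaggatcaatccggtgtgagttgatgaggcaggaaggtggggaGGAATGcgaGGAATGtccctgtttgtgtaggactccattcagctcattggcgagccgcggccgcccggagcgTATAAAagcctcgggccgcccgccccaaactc
FN1, chr2:216300797-216301041, minus strand: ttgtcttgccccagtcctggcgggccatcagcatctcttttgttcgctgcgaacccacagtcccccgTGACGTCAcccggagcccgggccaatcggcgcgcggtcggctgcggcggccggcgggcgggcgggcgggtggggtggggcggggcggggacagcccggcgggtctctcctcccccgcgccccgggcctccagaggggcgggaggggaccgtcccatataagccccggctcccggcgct
TGFB2, chr1:218518428-218518677, plus strand: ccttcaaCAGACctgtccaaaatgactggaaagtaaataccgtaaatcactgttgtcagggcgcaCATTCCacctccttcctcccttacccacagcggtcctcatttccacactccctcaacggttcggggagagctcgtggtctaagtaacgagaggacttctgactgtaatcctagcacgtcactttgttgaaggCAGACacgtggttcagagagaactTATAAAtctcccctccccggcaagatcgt
SMAD7, chr18:46477336-46477585, minus strand: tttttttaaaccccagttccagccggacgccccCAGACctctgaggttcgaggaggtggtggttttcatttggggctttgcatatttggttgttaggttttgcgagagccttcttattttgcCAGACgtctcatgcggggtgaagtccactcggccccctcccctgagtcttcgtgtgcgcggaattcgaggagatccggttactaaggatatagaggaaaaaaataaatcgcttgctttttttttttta

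The CTGF promoter held 3 GGAATG matches, at -169, -104 and -95 from the start site, a CAGAC match at -177 and a TATAAA match at -32. GGAATG was found in 10.5% of the 22199 promoter windows of protein-coding genes of that length in the same table, and at least 3 matches in 0.0766%. TGFB2 held TATAAA at -29, 1 match to the TEAD motif on the opposite strand at -185 and CAGAC at -243 and -53. SMAD7 held CAGAC at -217 and -128. CAGAC is common, present in 37.2% of the windows, and TATAAA was present in 6.18%. FN1 held the CRE at -183 to -176, which 2.01% of the windows held, and no exact match to the other motifs. Near matches, such as tataag close to the end of the printed FN1 sequence, were not counted in any window. RefSeq windows were found for 8 of the 9 genes, all but CYR61. Over these 8, TATAAA was present in TGFB2, TGFB3 and CTGF, the TEAD motif in CTGF and TGFB2, and CAGAC in TGFB2, SMAD7, CTGF and, on the opposite strand, TGFBR1, whose window was cut to 174 bases that no annotated exon covers. TGFB1, with a window of 76.8% G and C, and TGFBR2 held none of the 4 motifs, which says only that these letters were not in the window. A match is a description of the letters and not of a bound site.

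All 9 genes carried the marks of an active promoter. H3K4me3 lay within 1 kb of an annotated start site of 9 of 9 genes in both replicates, against 70.2% of protein-coding genes, and H3K27ac likewise for 9 of 9, against 55.0%. H3K27me3 lay within 1 kb of none of them in either replicate, against 11.4% of protein-coding genes in both replicates and 16.1% in at least 1. The combination of both active marks in both replicates without H3K27me3, found at all 9, was found at 51.3% of protein-coding genes and at 81.2% of those expressed, so most expressed genes shared it. The nearest H3K27me3 peak lay 49.5 kb or more from the canonical start site for 8 of the 9 genes in both replicates. TGFBR1 was the exception. H3K27me3 began 7.27 kb from its start site in replicate 1 and 7.99 kb in replicate 2, on the upstream side, and both replicates held further H3K27me3 peaks out to 43.2 kb upstream of the type I receptor gene.

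The marks differed in how far they spread from the start site. The widest H3K27ac peak at TGFB2 ran from 1.7 kb before the canonical start site to 43.1 kb inside the gene in replicate 1, a single peak of 44820 bp, and only 6 of the 57761 H3K27ac peaks of that replicate were wider. In replicate 2 the same stretch was split, with a peak of 4131 bp over the start site and others as far as 37.6 kb into the gene. There 752 H3K27ac peaks were wider than that of 4131 bp, so the extreme width rests on replicate 1. At SMAD7 the widest H3K27ac peak was 27566 bp in replicate 1, with 37 peaks wider. In replicate 2 it was 5122 bp, with 382 peaks wider, and lay 17.8 to 22.9 kb into the gene. H3K4me3 at SMAD7 was also wide, 10015 bp in replicate 1 and 5839 bp in replicate 2, with 14 and 5 wider peaks in the genome.

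CYR61 had an H3K27ac peak of 13544 bp in replicate 1 and 6892 bp in replicate 2, and H3K4me3 peaks of 8546 bp and 2864 bp. The replicate 1 peaks and the replicate 2 H3K27ac peak at CYR61 also reached a start site of DDAH1 to within 1 kb. DDAH1 is the neighbouring gene for an enzyme that degrades methylarginines. FN1 had H3K27ac peaks of up to 10954 bp and 1830 bp at its start sites, and CTGF of up to 7533 bp and 1086 bp. The narrowest were at the weakest ligand: H3K27ac at TGFB3 was 1591 bp wide in replicate 1 and 316 bp in replicate 2. Replicate 2 held narrower H3K27ac peaks throughout, with a median of 657 bp over 38639 peaks beside 1357 bp over 57761 in replicate 1, so widths are compared within a replicate only.

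**Figure D3:**
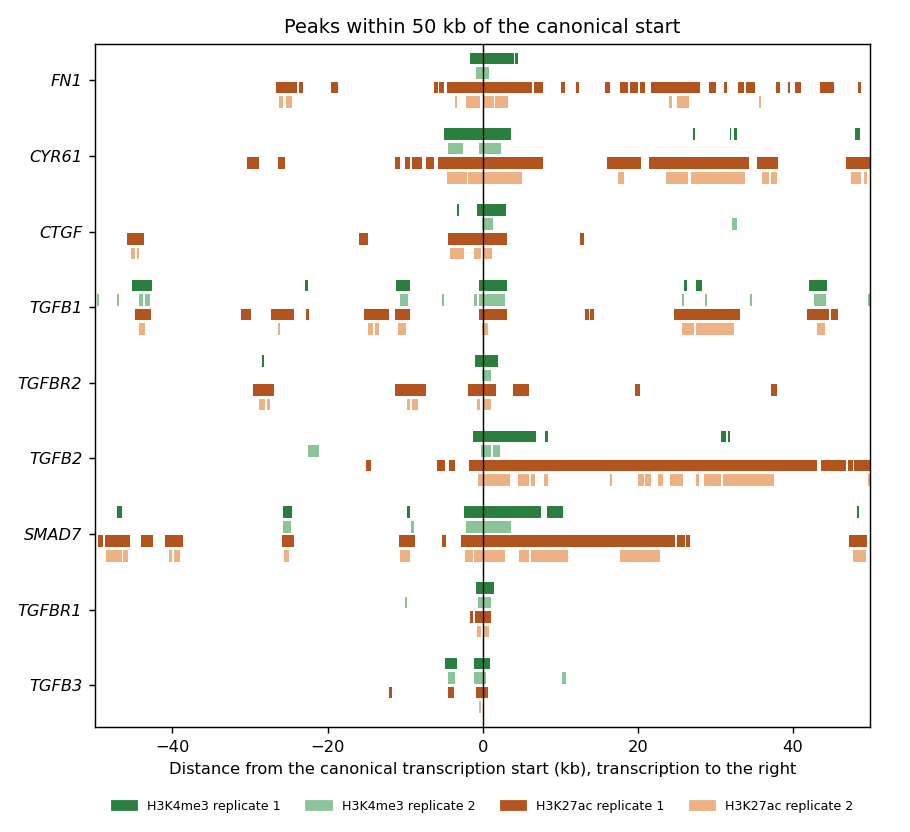
Peaks within 50 kb of the canonical start site of each gene, in kb with transcription to the right; rows from top to bottom in each gene are H3K4me3 replicates 1 and 2 (green) and H3K27ac replicates 1 and 2 (brown and tan), and genes are ordered by FPKM. Acetylation runs through much of the right-hand side of TGFB2 and SMAD7 and downstream of CYR61, while TGFBR1 and TGFB3 carry little beyond the start site.

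Near the start site itself, the replicates of H3K27ac differed. Replicate 2 had the lower reported fraction of reads in peaks, and the part of that in the gaps described here was not tested. In replicate 1 the canonical start site lay inside an H3K27ac peak for all 9 genes, against 59.9% of protein-coding genes. In replicate 2 it did so for TGFB1, TGFB2, SMAD7 and CYR61, 4 of the 9, against 28.9%. For CTGF, FN1, TGFBR1 and TGFBR2, another 4 of the 9, it lay in a gap between H3K27ac peaks on either side within 1 kb. This pattern was found at 7.24% of protein-coding genes in replicate 2 and at 0.399% in replicate 1, where none of the 9 showed it. All these shares are over all protein-coding genes, of which 55.0% had H3K27ac within 1 kb in both replicates, as all 9 did. Genes without such peaks cannot show a gap or a covered start site. The shares among acetylated genes would therefore be higher and were not computed. The gaps ran from -202 to 75 bp at CTGF, from -324 to 58 at FN1, from -255 to 19 at TGFBR1 and from -332 to 78 at TGFBR2, and were 278, 383, 275 and 411 bp long. Every TEAD, SMAD and TATA match of the CTGF window and the CRE of FN1 lay inside these gaps in replicate 2 and inside an H3K27ac peak in replicate 1. The matches in TGFB2 and SMAD7 lay inside an H3K27ac peak in both replicates. In replicate 2 the FN1 gap covered its whole printed window, and the CTGF gap most of its own. A single peak covered the whole window at TGFB2 and at SMAD7. The contrast thus follows from the extent of the gaps and peaks and says nothing of the motifs. At TGFB3 the start site lay 178 bp beyond the end of the only H3K27ac peak of replicate 2, which ran from -493 to -178.

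**Figure D4:**
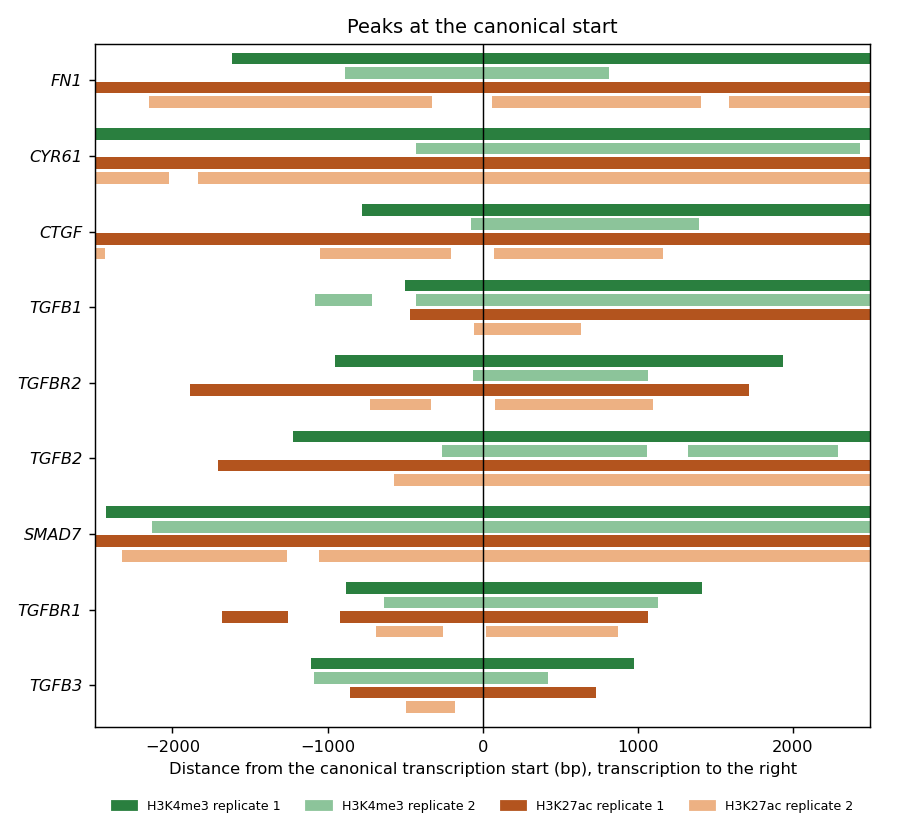
The same peaks within 2500 bp of the canonical start site, in bp. The H3K27ac rows of replicate 2 (tan) are open at the start site for FN1, CTGF, TGFBR2 and TGFBR1, where the rows of replicate 1 (brown) are closed for all 9 genes.

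Acetylation around the genes was then counted within 50 kb of any annotated start site. TGFB2 had 31 H3K27ac peaks in replicate 1 and 19 in replicate 2, FN1 27 and 9, TGFB1 12 and 9, TGFBR2 12 and 8, SMAD7 11 and 12, CYR61 11 and 9, TGFBR1 5 and 3, CTGF 4 and 5, and TGFB3 3 and 1. The median over the 9 was 11 in replicate 1 and 9 in replicate 2, beside 4 and 3 over all protein-coding genes and 6 and 4 over those with active promoter marks as above. Genes with start sites spread over a longer stretch have longer windows, here from 100001 bp for CTGF to 188791 bp for TGFB2, so the share of the window that was covered is also given.

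By that share, TGFB2, SMAD7 and CYR61 led. H3K27ac covered 47.0% of the TGFB2 windows in replicate 1 and 16.0% in replicate 2, 35.5% and 19.3% of those of SMAD7, and 42.3% and 23.2% of those of CYR61. Each of these lay above 98.9% or more of protein-coding genes in the replicate concerned. TGFB1 followed with 25.8% and 10.3%, FN1 with 22.8% and 5.09%, TGFBR2 with 12.4% and 3.50%, and CTGF with 11.5% and 4.44%. TGFBR1, at 3.45% and 1.17%, and TGFB3, at 2.37% and 0.259%, lay below the medians of protein-coding genes, which were 4.92% and 1.61%. CTGF and CYR61 thus differed in their surroundings as well as in level, with 4 and 5 peaks beside 11 and 9.

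The position of these peaks also differed between the genes. A long gene such as TGFB2 fills more of its windows than a short one such as CYR61, and the counts were not adjusted for this. Of the 31 and 19 peaks around TGFB2, 22 and 13 lay inside the gene, away from its start sites, and no start site of another protein-coding gene fell in its windows. FN1 had 16 and 3 peaks inside the gene, which is a long one, and 5 and 3 at its own start sites. The peaks of CYR61 lay mostly outside the gene, 10 of 11 in replicate 1 and 7 of 9 in replicate 2, and a peak of 12893 bp in replicate 1 and one of 7046 bp in replicate 2 lay between 21.5 and 34.4 kb downstream of its start site. SMAD7 had 8 peaks outside the gene in each replicate, on both sides of it.

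For TGFB1 the count must be read with its neighbours: start sites of 7 other protein-coding genes fell in its windows. Away from its own start sites, 7 of the 12 peaks of replicate 1 and 3 of the 9 of replicate 2 lay at such a start site. Those of CCDC97, TMEM91, B9D2, BCKDHA and EXOSC5 were among them. The H3K27ac peak at the TGFB1 start site also lay within 1 kb of a start site of TMEM91 in both replicates. The H3K4me3 peaks there did so too, so these marks cannot be assigned to TGFB1 alone. An H3K27ac peak of 8519 bp in replicate 1, 24.7 to 33.2 kb downstream of the TGFB1 start site, was matched in replicate 2 by peaks of 1510 and 4861 bp. TGFBR2 had a shared region 7.3 to 11.3 kb upstream and another 26.9 to 29.6 kb upstream. CTGF shared a region 43.7 to 45.8 kb upstream, and no start site of another protein-coding gene fell in the windows of CTGF, SMAD7, TGFBR1 or TGFBR2. Over the 9 genes, 74 of the 75 peaks of replicate 2 overlapped a peak of replicate 1 by at least 1 bp (98.7%, beside 97.3% of all H3K27ac peaks), and 36 of the 116 peaks of replicate 1 overlapped one of replicate 2 (31.0%, beside 44.1%).

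The other genes of the pathway were taken from lists chosen with earlier results of these data known, and are described by counts. Of 18 genes for storing and activating latent TGF-beta, 13 were expressed by the same limit and 11 carried the active promoter marks. ITGB1, an integrin subunit, stood at 339.9 and 308 FPKM, THBS1, a matrix protein that activates latent ligand, at 149.9 and 153, and LTBP4, which tethers latent ligand to the matrix, at 131 and 117. LTBP1, its better known relative, was at 0.322 and 0.388 FPKM, and its start sites carried H3K27me3 in both replicates beside the active marks.

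Of 11 co-receptors and inhibitors 7 were expressed, led by the activin antagonist FSTL3 at 88.2 and 84.7 FPKM, while TGFBR3 (betaglycan, which presents TGFB2 to the receptors) was at 0.632 and 0.563. Of 10 other type I and II receptors of the family 7 were expressed, with ACVR1 highest at 8.81 and 10.3 FPKM, so none reached TGFBR2. The library values of ACVR1 overlapped those of TGFBR1, at 9.41 and 8.64 FPKM. Of 18 SMADs and their regulators 17 were expressed and 17 carried the active marks. SMAD3 stood at 37.8 and 37.0 FPKM, SMAD4 at 11.4 and 11.9, SMAD2 at 5.83 and 5.52, and SMAD6, the inhibitory relative of SMAD7, at 2.47 and 2.15. Of 12 other ligands of the family 6 were expressed and 1, INHBA, which encodes the subunit of activin A, carried the active marks, at 31.2 and 45.4 FPKM. BMP7, INHBB and MSTN were listed at 0, and 6 of the 12 had H3K27me3 at a start site in at least 1 replicate.

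All 17 TGF-beta target genes on the list were expressed, with a median of 30.3 FPKM, and 14 carried the active marks. TGFBI, a matrix adaptor, stood at 694 and 683 FPKM and TPM1, an actin-binding tropomyosin, at 601 and 649. All 12 YAP-TEAD factors and targets were expressed, among them AXL, a receptor kinase, at 101 and 97.8 FPKM and WWTR1 (TAZ) at 71.4 and 79.5. The CCN family was split: beside CYR61 and CTGF, NOV was at 7.21 and 7.50 FPKM and WISP2 at 4.40 and 4.19, WISP3 at 0 and 0.0775, and WISP1 was listed at 0, and only CYR61 and CTGF of the 6 carried the active marks.

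Of 16 fibrosis matrix and myofibroblast genes 13 were expressed. VIM, an intermediate filament of mesenchymal and cultured cells, stood at 709 and 1133 FPKM, LOXL2, a collagen crosslinker, at 632 and 489.5, and SPARC at 486 and 477. FN1, which was not counted on this list, was above all of them. The collagens were uneven: COL5A1 stood at 72.1 and 70.0 FPKM and COL1A1 at 40.3 and 39.9, COL3A1 at 0.577 and 0.607, and COL1A2, the partner chain of COL1A1, was listed at 0. ACTA2, the smooth muscle actin of myofibroblasts, was at 0.118 and 0.703 FPKM.

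**Figure D5:**
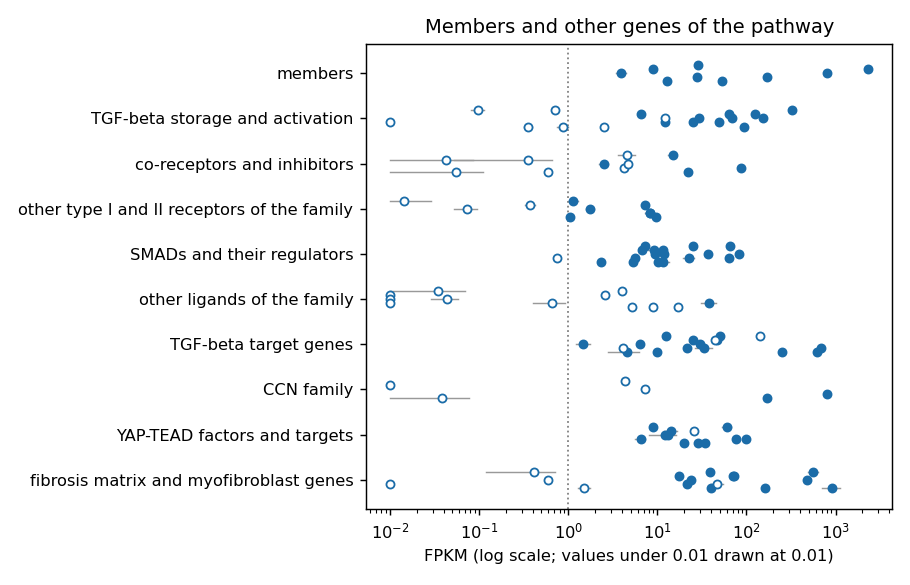
Mean FPKM of every gene on the pathway lists on a log axis, with a grey line from library 1 to library 2; filled circles had H3K4me3 and H3K27ac within 1 kb of a start site in both replicates and H3K27me3 in neither, open circles did not, and the dotted line is an FPKM of 1. All 9 members are filled and right of the line.

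The label of the cells was checked against markers. Of 13 proximal tubule and epithelial markers 8 were expressed, with KRT8 at 179 and 184 FPKM, PAX8 at 100.2 and 104, GGT1 at 64.1 and 58.1, and CDH2, the main cadherin of the proximal tubule, at 59.3 and 59.7. The endocytic receptors that define the proximal tubule in tissue were absent or nearly so, with LRP2 (megalin) listed at 0 and CUBN (cubilin) at 0.0334 and 0.0416 FPKM. Also below the limit were ANPEP, at 0.297 and 0.0296 FPKM, and PAX2, at 0.372 and 0.400. CDH1 (E-cadherin), an adhesion molecule of other epithelia, was at 0.210 and 0.283. Of 7 fibroblast and pericyte markers 2 were expressed, COL1A1 as above and LUM at 3.48 and 3.33, the summed level of the list being 45.5 and 44.1 FPKM, with PDGFRA at 0.0440 and 0 and DPT listed at 0. None of 5 endothelial markers was expressed (summed level 0.0149 and 0.0404 FPKM), 1 of 5 immune markers was, CD68 at 42.5 and 36.8, with PTPRC and CD3E listed at 0, and 1 of 4 podocyte markers was, PODXL at 4.41 and 5.85, with WT1 listed at 0. The part of any such cells in the levels of the 9 genes was not tested.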

How the data were processed

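HK2 cells were profiled by RNA-seq of ribosomal RNA-depleted RNA (2 libraries) and by ChIP-seq (2 replicates of each mark). The deposited transcript tables were made by the authors with StringTie 1.3.3 against GENCODE 27, per the file headers, and hold FPKM, TPM and mean read coverage per transcript and exon in one attribute column. The ChIP-seq files are the authors' peak intervals on hg19, 1 list per replicate, without scores or heights. The submitters' processing notes also name cutadapt, Bowtie2, MACS2, HISAT2 and HiC-Pro, with no versions. Neither read counts nor sequencing depth were in the files used, so no interval was computed, and read coverage of the exons is the measure of depth given. The ratio of transcript coverage to FPKM, which scales with the mapped bases of a library, had a median of 5.67 in library 1 and 5.52 in library 2.

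Transcript FPKM was summed per gene. Start sites came from GENCODE 44 mapped to GRCh37 and were joined by Ensembl identifier, and the canonical start site is that of the Ensembl canonical transcript. A peak counted with an overlap of at least 1 bp with a window of 1 kb or 50 kb to each side. Percentiles are the share of the 19658 protein-coding genes with a lower value. No test was run, because there is 1 condition. All 9 genes are named, transcripts are named from a share of 10% of the gene in either library, and from each list 2 to 4 genes with the highest FPKM and those at or near 0 may be named; a few others (SMAD2, SMAD4, SMAD6, TGFBR3, LTBP1, COL1A1, COL5A1 and markers) and the overlapping and neighbouring genes were named after their values were seen. The genes and the lists were chosen with earlier results of these data known. The overlap functions were tested on simulated data. Python 3.11.15 with pandas, numpy and matplotlib was used. Input DNA and HiChIP were not analysed here.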

Additional observations from a re-analysis of the deposited data

How the results depend on the processing

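All 9 genes stayed expressed with TPM in place of FPKM, with protein-coding transcripts only and in either library alone, and 8, all but TGFB3, reached an FPKM of 5. The counts of genes with H3K4me3 and H3K27me3 at a start site stayed at 9 and 0 under every window, width limit, choice of start sites and replicate tried, and that of H3K27ac at 9 except with peaks of at least 500 bp, where it was 8. The median percentile, 87.9, became 82.9 once genes below a mean FPKM of 0.1 were left out and 95.8 among all annotated genes, and was 87.9 in either library alone. The median log2 ratio between neighbours, 1.15, became 1.04 with a pseudocount of 1. The median share of the leading transcript, 81.8%, ranged from 81.8% to 82.0% with 1 library left out. The median number of H3K27ac peaks within 50 kb, 10, became 5.50 within 20 kb and 15.5 within 100 kb, and stayed between 9 and 11 under the other settings, the canonical start site alone (10, chosen after seeing the data) among them. The leading FN1 transcript holds 45.0% of the gene in library 1 and 11.1% in library 2, so a statement on it rests on 1 library. No paired analysis was possible because the results come from no test. The precision is limited by 2 libraries, by peak lists without heights and by a read depth behind each peak that was not analysed here, and a peak absent from a list was not detectable by the authors' threshold.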
